A study of Homo sapiens with 22 samples.

Results

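The replication-dependent histone genes of chromosomes 1 and 6 make the bulk histone proteins that package newly copied DNA. The set comprised every protein-coding gene on these chromosomes whose symbol is H2AC, H2BC, H3C or H4C followed by digits, or H1-1 to H1-6. By this rule 68 of 19974 protein-coding genes were taken, namely 6 linker histone H1 genes, 17 H2A, 18 H2B, 13 H3 and 14 H4 genes. They fell into 6 clusters separated by more than 200 kb. On chromosome 1 there were 11 genes at 149.78 to 149.89 Mb and 2 genes (H2AC25 and H2BC26) at 228.46 Mb. On chromosome 6 there were 2 genes (H2AC1 and H2BC1) at 25.73 Mb, 32 genes at 26.02 to 26.29 Mb, 5 genes at 27.13 to 27.15 Mb and 16 genes at 27.81 to 27.89 Mb.

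The libraries were CUT&RUN profiles of the Ewing sarcoma cell lines A673 and CHLA10, both established lines; in this assay an antibody tethers a nuclease that cuts out the chromatin it binds. H3K4me3, H3K4me1 and H3K27me3 antibodies were used at 1:100 and the H3K27ac antibody at 1:50, each in 2 libraries per line, from cells labelled shNS. The antibody against HOXD13, a homeobox transcription factor, was used at 1:20 in 1 library per line, from cells without that label. IgG libraries, at 1:50, had no peak list used here. Replicates were not stated to come from separate cultures, and each group rests on a single cell line. The values are peaks that the authors called in each library, with a fold enrichment and a −log10 q per peak. Read depth behind the lists was unknown, and fewer cells carrying a mark cannot be told apart from less mark per cell.

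Replication-dependent histone genes are switched on in S phase, when DNA is copied. Most are short, intronless and transcribed in a nuclear compartment, the histone locus body, around the coactivator NPAT, and their transcripts end in a stem-loop in place of a poly(A) tail. H3K4me3 marks the starts of active or poised genes, H3K27ac marks active promoters and enhancers, H3K4me1 marks enhancers and promoter flanks, and H3K27me3 is laid down by Polycomb repressors.

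RefSeq promoters (build GRCh38.p14) were held for 63 of the 68 genes, all but H4C1, H4C3, H2AC12, H3C11 and H3C12. The 200 bases before the annotated start are printed 5′ to 3′ along the gene for the promoters on which the results below turn. Capitals mark 5 words on either strand: the octamer ATGCAAAT, which binds the factor POU2F1, the TATA box TATAAA, the CCAAT box, the word GGTCCG from the H4 promoter element, and CAATAAA, a word of the kind that posterior HOX proteins bind. Each window ends 1 base before the start. H2BC8 (chr6:26216689-26216888, minus strand), H2BC9 (chr6:26251414-26251613, plus strand) and H3C6 (chr6:26223978-26224177, plus strand) lay under HOXD13 peaks. Those of H2BC8 and H2BC9 were the strongest at a histone gene in A673, and that of H3C6 was the only such peak in CHLA10.

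H2BC8: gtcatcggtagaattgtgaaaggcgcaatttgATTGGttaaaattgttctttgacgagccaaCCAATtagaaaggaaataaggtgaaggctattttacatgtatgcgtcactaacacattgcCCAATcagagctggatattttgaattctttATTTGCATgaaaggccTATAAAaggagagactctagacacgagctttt

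H2BC9: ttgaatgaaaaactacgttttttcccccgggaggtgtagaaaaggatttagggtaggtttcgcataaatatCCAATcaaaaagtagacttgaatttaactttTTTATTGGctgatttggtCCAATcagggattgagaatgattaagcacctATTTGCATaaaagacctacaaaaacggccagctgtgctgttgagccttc

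H3C6: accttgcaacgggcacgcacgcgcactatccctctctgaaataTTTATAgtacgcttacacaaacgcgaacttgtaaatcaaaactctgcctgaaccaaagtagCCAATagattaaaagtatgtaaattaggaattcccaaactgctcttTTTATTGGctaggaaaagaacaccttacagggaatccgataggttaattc

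H2BC10 (chr6:26272731-26272930, plus strand) had H3K4me3 in CHLA10 and in no A673 library. H2BC1 (chr6:25726577-25726776, plus strand), a testis H2B gene, had H3K4me3 in no library. H4C14 (chr1:149832457-149832656, plus strand) carried 1 of the highest H3K4me3 peaks of the set in A673.

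H2BC10: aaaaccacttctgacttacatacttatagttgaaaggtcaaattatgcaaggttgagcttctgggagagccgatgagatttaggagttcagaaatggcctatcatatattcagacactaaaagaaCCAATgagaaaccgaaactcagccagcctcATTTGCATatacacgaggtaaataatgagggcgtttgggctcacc

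H2BC1: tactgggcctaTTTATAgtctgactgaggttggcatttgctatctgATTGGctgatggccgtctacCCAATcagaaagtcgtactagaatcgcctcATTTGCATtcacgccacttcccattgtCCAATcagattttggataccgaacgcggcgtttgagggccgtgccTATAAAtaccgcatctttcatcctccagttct

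H4C14: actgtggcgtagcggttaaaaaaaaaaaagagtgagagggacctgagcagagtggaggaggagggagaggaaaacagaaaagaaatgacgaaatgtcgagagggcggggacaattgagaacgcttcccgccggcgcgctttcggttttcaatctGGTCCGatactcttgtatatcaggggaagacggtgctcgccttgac

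The octamer was in 22 of the 63 histone promoters, 14 of them among the 18 H2B promoters, against 1.33% of the 15812 protein-coding promoters held. The TATA box was in 37 of 63 against 7.70%, and the CCAAT box in 54 of 63 against 30.5%. GGTCCG was in 11 of the 12 H4 promoters held, all but H4C7, against 10.1% of all promoters. CAATAAA was in 2 of 63, H2BC9 and H3C6, against 1.98%. In both of these genes it overlapped a CCAAT box. Both words lay on the strand opposite to that printed, so that the capitals run together as TTTATTGG. The words were chosen after the promoters had been read, from 13 searched on both strands. Of the 8 not capitalised, TATAA was in 53 of 63 histone promoters against 13.2% of all, CGTAAA in 4 against 2.50%, AATAAA in 15 against 8.78% and TTTAT in 45 against 22.1%. TTTCGCGC was in 7 against 0.582%, TTTGGCGC in 0 against 0.594%, TTTCTC in 10 against 14.5% and GGAAG in 23 against 60.2%. TATAA lies within TATAAA, and AATAAA within CAATAAA, so these counts overlap. Windows of neighbouring genes that start in opposite directions can overlap, and a match there counts for both genes. H2AC8 and H2BC8 thus share an octamer, and H2AC7 and H3C4 had the same window. A match is a description of the letters only.

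A gene was taken to carry a mark when a peak overlapped the gene or the 1 kb on either side by at least 1 bp. The median histone gene was 494.5 bp long against 24.2 kb for all protein-coding genes, and a long gene has more room for a peak, so shares are also given beside the 1906 protein-coding genes of up to 3 kb and, for genes with a start in the promoter table, for the start with 1 kb on either side. Windows of neighbouring histone genes merged into 38 loci, so neighbours often shared a peak and were not independent. Within the set, 11 divergent pairs had starts 194 to 248 bp apart. With 2 libraries against 2 the smallest p of an exact permutation test is 0.33, and HOXD13 had 1 library per line, so no p-value is given. A gene counts as marked in 1 line only if that line had a peak in each of its libraries and the other line had none.

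**Figure D1:**
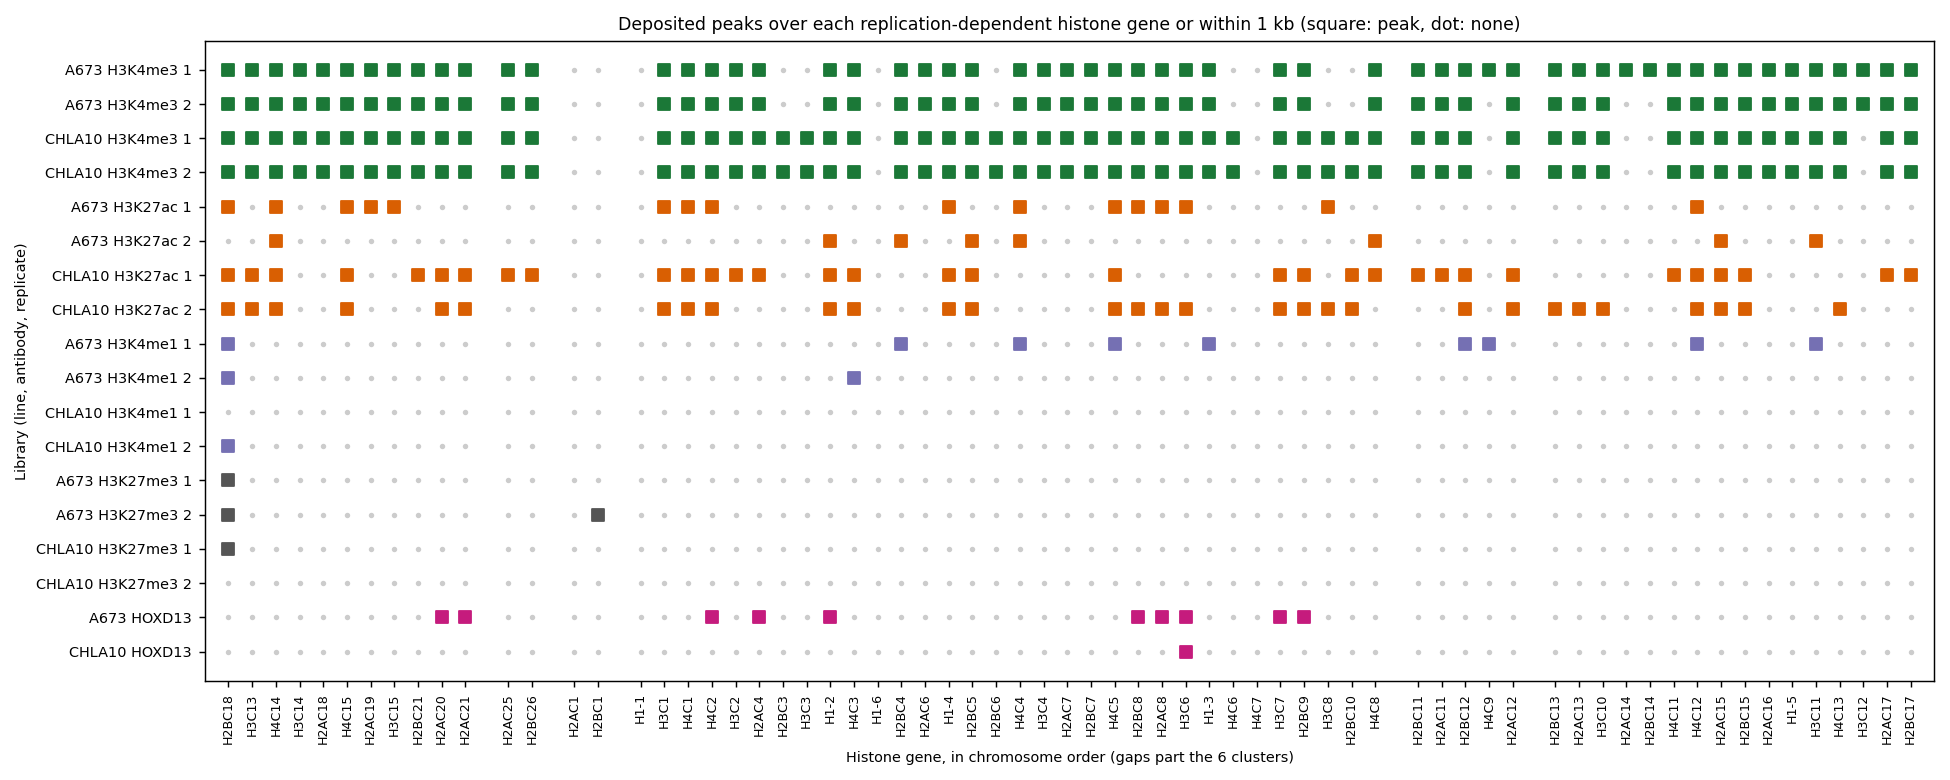
Each column is 1 of the 68 histone genes in chromosome order and each line of symbols is 1 of the 18 libraries; a square is a peak over the gene or within 1 kb and a dot is none. H3K4me3 covered 53 genes in all 4 libraries, whereas H3K4me1 and H3K27me3 were nearly empty.

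H3K4me3 lay over most of the histone genes in both lines. It was present at 57 and 54 of the 68 genes in A673 replicates 1 and 2 (background shares over all genes 70.6% and 70.7%). In CHLA10 it was at 59 genes in each replicate (71.6% and 71.5%). In all 4 libraries 53 genes (77.9%) had it, against 66.7% of all genes and 31.2% of genes of up to 3 kb. At gene starts the count was 49 of 63 (77.8%) against 65.2%.

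By histone type, all 4 libraries had H3K4me3 at 4 of 6 H1 genes, 15 of 17 H2A, 13 of 18 H2B, 10 of 13 H3 and 11 of 14 H4 genes. The clusters differed from one another. All 11 genes of the 149.78 Mb cluster and both genes at 228.46 Mb carried the mark in all 4 libraries, as did 23 of 32 in the 26.02 Mb cluster, 4 of 5 at 27.13 Mb and 13 of 16 at 27.81 Mb. Neither H2AC1 nor H2BC1 at 25.73 Mb carried it.

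The linker histone genes, whose product binds the DNA entering and leaving the nucleosome, split into marked and unmarked members. H1-2 had an H3K4me3 −log10 q of 83.7 and 72.9 in A673 and of 58.6 and 23.6 in CHLA10. H1-3 had 56.4 and 50.0 in A673 and 60.9 and 48.8 in CHLA10. H1-4 and H1-5 also had peaks in all 4 libraries. H1-1 and the testis gene H1-6 had none; the nearest H3K4me3 peak was 2.38 to 2.53 kb from H1-1 and 2.73 to 3.87 kb from H1-6.

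Among the core histone genes, which encode the proteins of the nucleosome itself, the highest-ranked H3K4me3 peaks lay at a few genes in each line. In A673 these were H4C15, H4C14, H2AC25, H2BC26 and H2BC5, in order of the mean rank, within the list, of the highest peak in the gene's window. By the peak within 1 kb of the start the first 4 kept this order, and H2BC5 gave way to H2AC7, H2BC7 and H3C4, which shared a peak. H4C14 had a fold enrichment of 69.4 and 66.6 in A673 and of 4.82 and 4.77 in CHLA10. At its start, H4C15 had 60.6 and 68.2 in A673 and 6.82 and 17.8 in CHLA10.

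The values of 1 list are set against peaks of the same list only. H4C14 ranked 766 of 17909 peaks and 1588 of 18497 in A673, and 11268 of 21384 and 10565 of 21164 in CHLA10. The 300 bases held around the H4C14 and H4C15 starts were identical, as were those of H2AC18 and H2AC19 (299 bases, shifted by 1) and of H3C14 and H3C15 (296 bases, shifted by 4). Reads of 25 bp from each end may not separate such copies, so values for these genes are uncertain. H4C11 and H4C12 matched at 98.3% of bases.

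In CHLA10 the highest mean ranks were those of H2BC5, H4C15, H1-3, H2AC25 and H2BC26. By the peak at the start they were those of H1-3, H2AC25, H2BC26 and H4C15, followed by H2BC10 and H3C8. The rank of H2BC5, annotated over 13229 bp, rested on a peak at the far end of the gene, whose near edge lay 11732 to 12566 bp from the start. That peak had a −log10 q of 252 and 147 in A673 and of 85.2 and 89.1 in CHLA10. Within 1 kb of the H2BC5 start the values were 53.1 and 97.3 in A673 and 26.9 and 31.8 in CHLA10. The rank of H4C15, annotated over 16753 bp, rested in CHLA10 replicate 1 on the peak at H2AC19 and H3C15 within its annotation (fold enrichment of 6.49). H2AC25 and H2BC26, a divergent pair 230 bp apart, shared their peaks, with −log10 q of 236 and 230 in A673 and of 69.4 and 41.3 in CHLA10. H4C3 had the weakest evidence in A673 of the genes with peaks in all 4 libraries, with a −log10 q of 4.57, 11.9, 4.02 and 12.6. The A673 values come from peaks that did not overlap. A673 replicate 2 also had a lesser peak (4.75) that overlapped that of replicate 1.

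H3K4me3 peaks at the histone genes were lower than those at gene starts in general, in each of the 4 libraries. The median fold enrichment was 12 over 38 peaks in A673 replicate 1, against 32.9 over 10532 peaks at gene starts. It was 17.2 over 36 peaks against 31.3 in A673 replicate 2. In CHLA10 it was 5.63 over 42 peaks against 22.1 in replicate 1, and 5.71 over 47 peaks against 20.0 in replicate 2.

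Length did not follow height. The median peak at the histone genes was 2807 and 2846 bp long in A673, against 2337 and 2275 bp for gene-start peaks. In CHLA10 it was 2067 and 2240 bp, against 2176 and 2248 bp. Counting only peaks within 1 kb of a histone gene start, it was 2925 and 3055 bp in A673 and 2083 and 2261 bp in CHLA10. The histone peaks were therefore longer than the gene-start median in both A673 libraries and close to it in both CHLA10 libraries, and a peak that spans a divergent pair counts once.

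**Figure D2:**
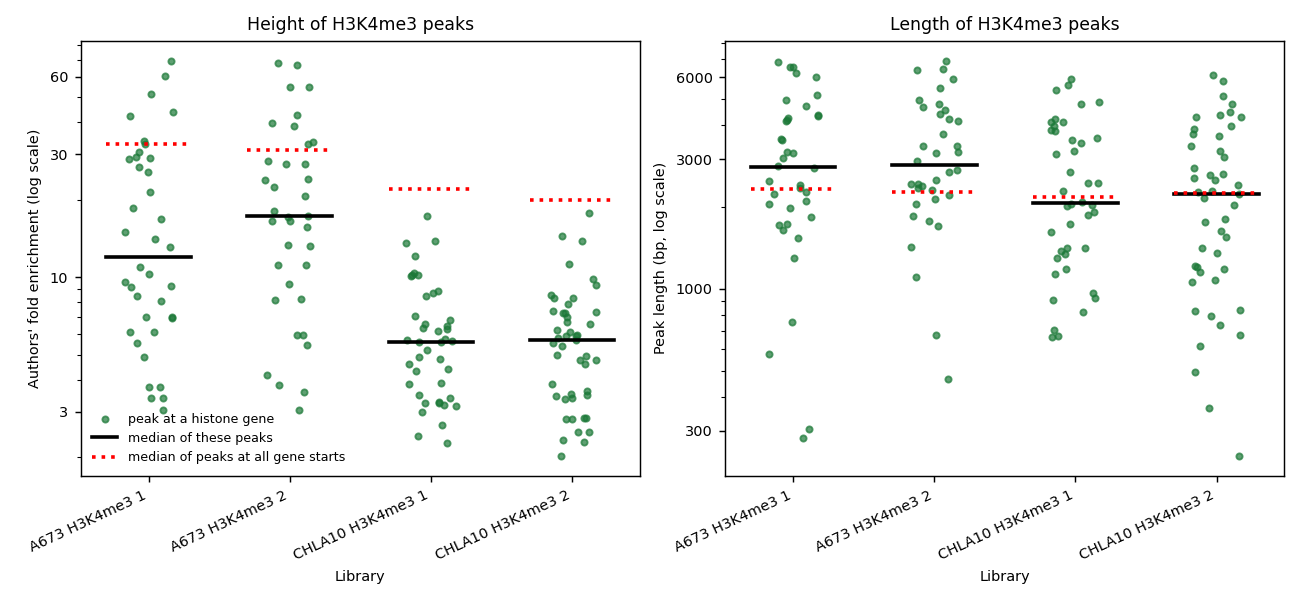
Fold enrichment (left) and length in bp (right) of each H3K4me3 peak at a histone gene, both on log axes, by library; points are peaks, black bars their medians and red dotted bars the median of peaks at all gene starts. The black bar is below the red one for fold enrichment in all 4 libraries, from 12 against 32.9 to 5.71 against 20.0.

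H3K4me3 was called in CHLA10 only at 6 histone genes (8.82%) against a background of 2.4% of all genes, and in A673 only at 1 gene, H3C12 (background 1.68%). All 6 lay in the 26.02 Mb cluster. They were H2BC3 and its divergent neighbour H3C3, H2BC6, H4C6, and the neighbours H3C8 and H2BC10; pairs shared a peak, so the 6 genes stand for 4 loci.

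H3C8 and H2BC10 had the strongest of these peaks, with a −log10 q of 33.6 and 55.1 in CHLA10. The nearest A673 H3K4me3 peaks were 9.84 and 10.1 kb from H2BC10. The CHLA10 replicate 1 peak, 4860 bp long, spanned both genes. In replicate 2 the peak of 55.1, 2649 bp long, covered H3C8 and ended before the H2BC10 start. A separate replicate 2 peak over H2BC10 was 2165 bp long, with a −log10 q of 34.4. The H2BC10 promoter, printed above, holds an octamer at −45 to −38 and a CCAAT box at −75 to −71.

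The other 4 genes had short, low peaks. H2BC3 and H3C3 shared peaks of 820 and 830 bp with a −log10 q of 3.93 and 19.9. H2BC6 had 8.40 and 3.02, and H4C6 had 3.05 and 5.03. The nearest A673 peaks were 8.10 to 9.47 kb from H2BC3 or H3C3, 3.14 and 3.51 kb from H2BC6 and 4.69 and 5.12 kb from H4C6.

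H3C12, an H3 gene at 27.89 Mb, was reached in A673 by a peak of 6234 and 6440 bp that also covered its neighbour H2AC17. In CHLA10 the peak at H2AC17 was 3145 and 3885 bp long, and its edge lay 2.17 and 1.22 kb from H3C12, just outside the 1 kb window. With a window of 5 kb H3C12 was no longer in 1 line only. H4C9, H2AC14 and H2BC14 had a peak in A673 replicate 1 alone, with a −log10 q of 6.05 at H4C9 and of 34.5 at the H2AC14 and H2BC14 pair. Without A673 replicate 2, the A673-only count was 4.

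The counts of 1 line only depended on the peaks kept. With each list cut to equal peak number, the CHLA10-only count was 2. When only the better 50% of peaks by q were kept, the A673-only count was 8 and the count in all 4 libraries was 10 of 68. The median histone peak stood at 46.0% to 58.1% of the way down its list.

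The 3 members known for testis expression had no H3K4me3, H3K27ac, H3K4me1 or HOXD13 peak. H2AC1 and H2BC1 form a divergent pair 215 bp apart. The nearest H3K4me3 peak was 235 to 236 kb away in all 4 libraries. H2BC1 holds the octamer at −104 to −97, CCAAT boxes and a TATA box at −32 to −27, as printed above, which are words shared with marked H2B genes. H2BC1 had an H3K27me3 peak past its end, in A673 replicate 2 alone, with a −log10 q of 2.36.

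H4C7 and H1-1 brought the genes with no H3K4me3 in any library to 5 (background 24.3%). H4C7, at 386 bp the shortest of the 68, lay 2.31 to 2.45 kb from the nearest H3K4me3 peak. Its promoter was the only H4 promoter held without GGTCCG, which says only that those letters are not in the window.

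H3K27ac lay over fewer histone genes than H3K4me3, and over more of them in CHLA10. It was present at 16 and 8 of 68 genes in A673 (background shares 49.8% and 53.8%). In CHLA10 it was at 33 and 30 genes (50.8% and 38.1%). At gene starts, where gene length plays no part, the shares were 20.6% and 7.94% of 63 histone genes in A673 against 13% and 14.8% of all starts. In CHLA10 they were 46% and 39.7% against 31.9% and 21.5%.

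In all 4 libraries 1 histone gene, H4C14, had H3K27ac, against 22.6% of all genes and 2.31% of genes of up to 3 kb. At gene starts it was 1 of 63 (1.59%) against 3.67%. The −log10 q at H4C14 was 2.84 and 22.5 in A673 and 18.7 and 15 in CHLA10. The highest peaks of H4C14 in the A673 libraries did not overlap, but replicate 2 also had a lesser one that overlapped that of replicate 1. At the start of H4C15, its near-identical copy, there was a peak in A673 replicate 1 alone and in both CHLA10 libraries, with a −log10 q of 2.46, 26.7 and 22.4. No other of the 68 genes had a peak in all 4 libraries. At 22 (32.4%) there was none in any library, against 25.2% of all genes and 69% of genes of up to 3 kb. At gene starts there was none at 23 of 63 (36.5%) against 56.5%.

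H3K27ac was called in CHLA10 only at 10 histone genes (14.7%), with a background of 4.81% over all genes. At gene starts it was 8 of 63 (12.7%) against 9.65%, so that there the share was near the background. The 10 were H3C13, H2AC20 and H2AC21 on chromosome 1, and H4C3, H3C7, H2BC9, H2BC10, H2BC12, H2AC12 and H2BC15 on chromosome 6. H2BC15, an H2B gene, had the strongest peaks, with a −log10 q of 18.0 and 17.2 in CHLA10, and the nearest A673 peaks were 6.31 and 1.05 kb away. These CHLA10 peaks lay at and beyond the far end of its divergent neighbour H2AC15 and overlapped an A673 replicate 2 peak there (−log10 q of 6.49), which ended 54 bp short of the H2BC15 window. H2BC15 was the only 1 of the 10 whose CHLA10 peaks overlapped an A673 peak. H2AC20 and H2AC21 shared a peak beside H2AC21, with 10.7 and 8.59, and a stronger peak of 14.9 reached H2AC20 from the side of H2BC21 in replicate 1 alone. At 9 of the 10 genes, all but H2BC9, a peak of 1 CHLA10 library overlapped a peak of the other. H3C13 was among the weakest, with 4.21 and 3.16.

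In A673 only, H4C4 had H3K27ac (8.66% of all genes and 2.1% of genes of up to 3 kb), with a −log10 q of 9.0 and 10.0. The A673 libraries shared few genes. Only H4C4 and H4C14 (2.94%) had a peak in both, against 38.7% of all genes and 5.19% of genes of up to 3 kb. At gene starts it was 2 of 63 (3.17%) against 6.19%. Leaving out A673 replicate 1 gave 18 genes in CHLA10 only, and leaving out CHLA10 replicate 2 gave 20. The count in all libraries kept was 9 without A673 replicate 2 and 4 without A673 replicate 1. Leaving out a library can only raise such counts.

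Among histone genes with H3K4me3 at the start in both libraries of a line, H3K27ac in both libraries was found at 2 of 49 (4.08%) in A673, against 8.23% of all such genes. In CHLA10 it was at 17 of 55 (30.9%) against 26.4%. In at least 1 library the shares were 32.7% against 26.7% in A673, and 67.3% against 49.6% in CHLA10.

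**Figure D3:**
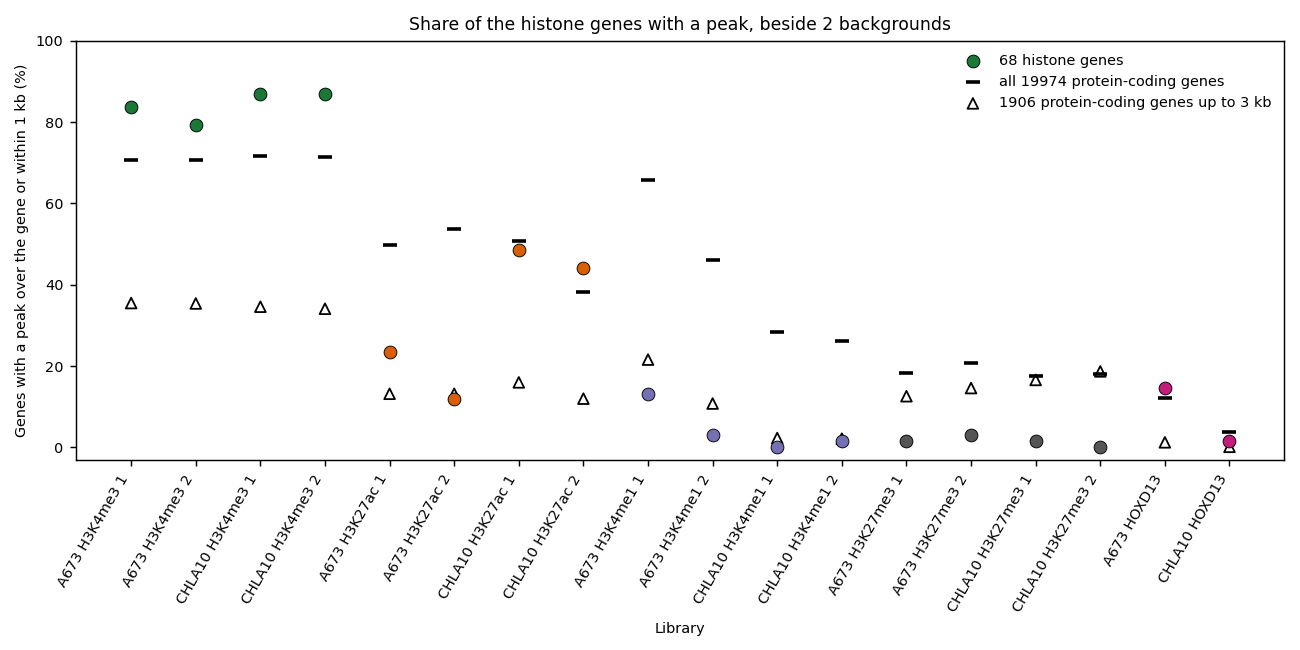
Share of genes (%) with a peak over the gene or within 1 kb, by library; filled circles are the 68 histone genes, black bars all protein-coding genes and triangles protein-coding genes of up to 3 kb. The circles lie above both other marks in the 4 H3K4me3 libraries (79.4% to 86.8%) and below both for H3K27me3.

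H3K4me1 and H3K27me3 were nearly absent from the histone genes. H3K4me1 was at 9 and 2 genes in A673 (background shares 65.8% and 46%) and at 0 and 1 gene in CHLA10 (28.3% and 26.2%). At gene starts it was at 2 and 0 of 63 genes in A673, against 20.3% and 10.5% of all starts, and at none in CHLA10 (2.81% and 2.65%). H2BC18 was the only gene with H3K4me1 in both A673 libraries (43.3% of all genes and 8.18% of genes of up to 3 kb), with a −log10 q of 25.8 and 17.0. H3K4me1 was in no library at 58 of 68 genes (85.3%), against 28.7% of all genes and 74.4% of genes of up to 3 kb. The contrast was thus much smaller beside short genes.

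H3K27me3 was at 1 and 2 genes in A673 (background shares 18.2% and 20.7%) and at 1 and 0 in CHLA10 (17.6% and 18.1%). At the 63 starts it was at none in all 4 libraries, against 10.8% to 12.9% of all starts. H2BC18 was the only gene with it in both A673 libraries (background 17.1%), with a −log10 q of 3.56 and 3.54, and it had 2.18 in CHLA10 replicate 1. H2BC18 is annotated over 29682 bp, and these broad peaks of 10779 and 6954 bp reached its far end, away from its start. The A673 H3K4me1 peaks also lay within the annotated gene and away from its start.

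HOXD13 peaks lay at 10 histone genes in A673 (14.7%), with a background of 12.2% over all genes and 1.26% over genes of up to 3 kb. At gene starts they were at 9 of 63 (14.3%), against 2.21% of all starts. In CHLA10, whose list has 2099 peaks against 7160 in A673, 1 gene of the 68 had a HOXD13 peak (background 3.8%), and at starts 1 of 63 against 0.259%. The 10 genes shared 10 peaks at 7 loci.

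H2BC8 and H2AC8, a divergent pair 233 bp apart, had the strongest of these peaks. Its −log10 q was 81.8 and its fold enrichment 28.8, rank 60 of 7160. The summit lay at −35 bp from the H2BC8 start, and the peak (223 bp) covered the TATA box at −32 to −27, the octamer at −48 to −41 and 2 of the CCAAT boxes in the sequence above. Lesser peaks lay 218 bp into H2BC8 (−log10 q of 2.10) and 709 bp past the start of H2AC8 (4.96), 193 bp beyond the end of that gene. CHLA10 had no HOXD13 peak there.

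H3C7 and H2BC9 shared the second strongest, with a −log10 q of 56.7, fold enrichment of 26.8 and rank of 175. Its summit lay at −121 bp from the H2BC9 start, and the peak of 134 bp covered the CAATAAA at −98 to −92. An H3K4me3 peak spanned both genes in all 4 libraries. The octamer of H2BC9, at −49 to −42, lay outside the peak.

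H3C6, an H3 gene, was the only histone gene with HOXD13 in both lines. In CHLA10 its peak of 476 bp had a −log10 q of 69.2 and a fold enrichment of 28.1, at rank 236 of 2099, with the summit at −134 bp from the start. In A673 an overlapping peak of 218 bp had a −log10 q of 4.59 at −56 bp, and a separate one of 25.4 lay at −971 bp. Both overlapping peaks covered the CAATAAA at −50 to −44.

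Weaker A673 peaks completed the set. The peak at H2AC21 and H2AC20 had a −log10 q of 15.1 with the summit at −106 bp from the H2AC21 start. That at H2AC4 had 5.17, at −24 bp. H1-2 had 16.4 at 1012 bp past its start, and H4C2 had 4.29 at 801 bp past its start, both beyond the end of the gene. All 10 genes with a HOXD13 peak also had H3K4me3 in both A673 libraries, as did 54 of the 68 histone genes (79.4%) and 69.6% of all genes. At each of the 10 peaks both A673 libraries had an H3K4me3 peak. The HOXD13 libraries were made from differently labelled cells.

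**Figure D4:**
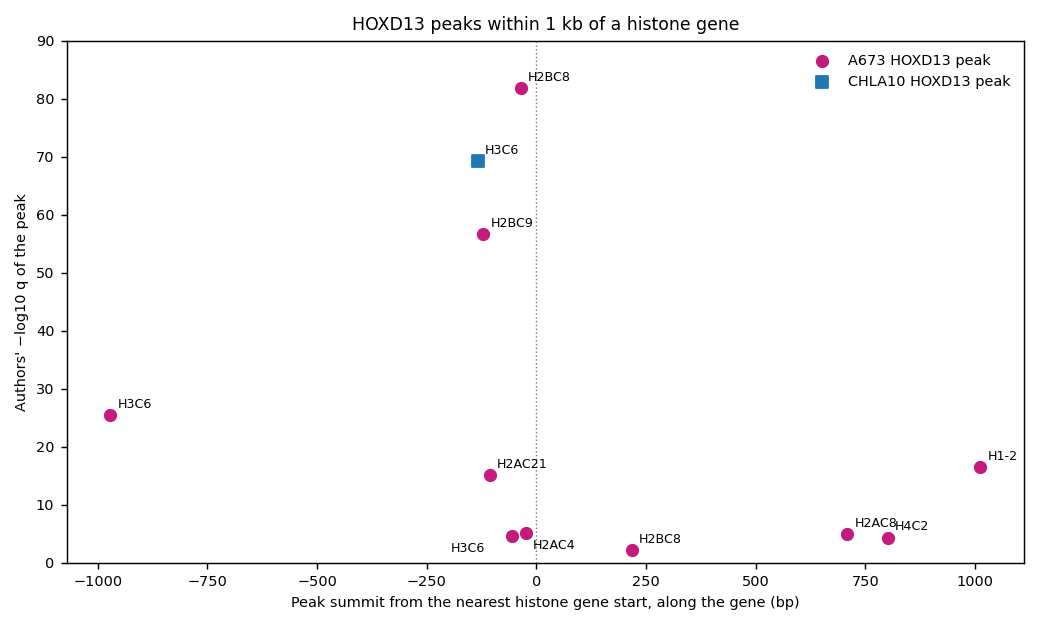
Each point is a HOXD13 peak within 1 kb of a histone gene, with the distance of its summit from the nearest histone gene start along the gene (bp, negative before the start) and the authors' −log10 q; circles are A673 and the square is CHLA10. The strongest A673 points, H2BC8 (81.8) and H2BC9 (56.7), and the only CHLA10 point, H3C6 (69.2), lie at −35 to −134 bp from a start. The lines have separate lists, so their values are not ranked against each other.

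Counted over the 200 bases before the start alone, HOXD13 peaks overlapped 6 of the 63 histone promoters in A673 (9.52%), namely H2AC21, H2AC4, H2AC8, H2BC8, H2BC9 and H3C6, against 0.942% of all promoters. In CHLA10 they overlapped 1, H3C6, against 0.177%. In A673, H2AC8 and H2BC8 shared a peak, and the promoter peaks of H2AC4 and H3C6 were weak, at ranks 6385 and 6537 of 7160. Of all 149 promoters under A673 HOXD13 peaks, 22 held CAATAAA (14.8%), and of the 28 under CHLA10 peaks 12 did (42.9%), against 1.98% of all promoters. The 2 histone promoters with this word were both under a HOXD13 peak. They were 2 of the 6 under A673 peaks, and neither H2BC8 nor H2AC8, under the strongest peak, held it. The octamer was in 4 of these 6, against 34.9% of the 63 histone promoters and 4.03% of the 149. H2AC8 and H2BC8 share the same octamer, and those of H2AC4 and H2BC9 lay outside the HOXD13 peaks. The CCAAT box, which overlaps CAATAAA in H2BC9 and H3C6, was in 87 of the 149 (58.4%) and 27 of the 28 (96.4%), against 30.5% of all promoters. A role of any word was not tested. The A673 count of 10 genes was 3 with the gene body alone, 3 with an overlap of at least 200 bp and 5 with lists of equal peak number.

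A further HOXD13 peak in the 26.02 Mb cluster was called in both lines but reached no gene window. It was at chr6:26136306-26136589 in A673 (−log10 q of 10.5) and at chr6:26136381-26136596 in CHLA10 (22). Its summit in A673 was 12247 bp past the start of H2AC6, the nearest histone gene start. It lay under H3K27ac peaks in both A673 libraries and in 1 CHLA10 library, with no H3K4me3, H3K4me1 or H3K27me3 peak there in that line's libraries. Another A673 peak lay at −9600 bp from the H1-2 start, with a −log10 q of 14.6 and no mark.

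**Figure D5:**
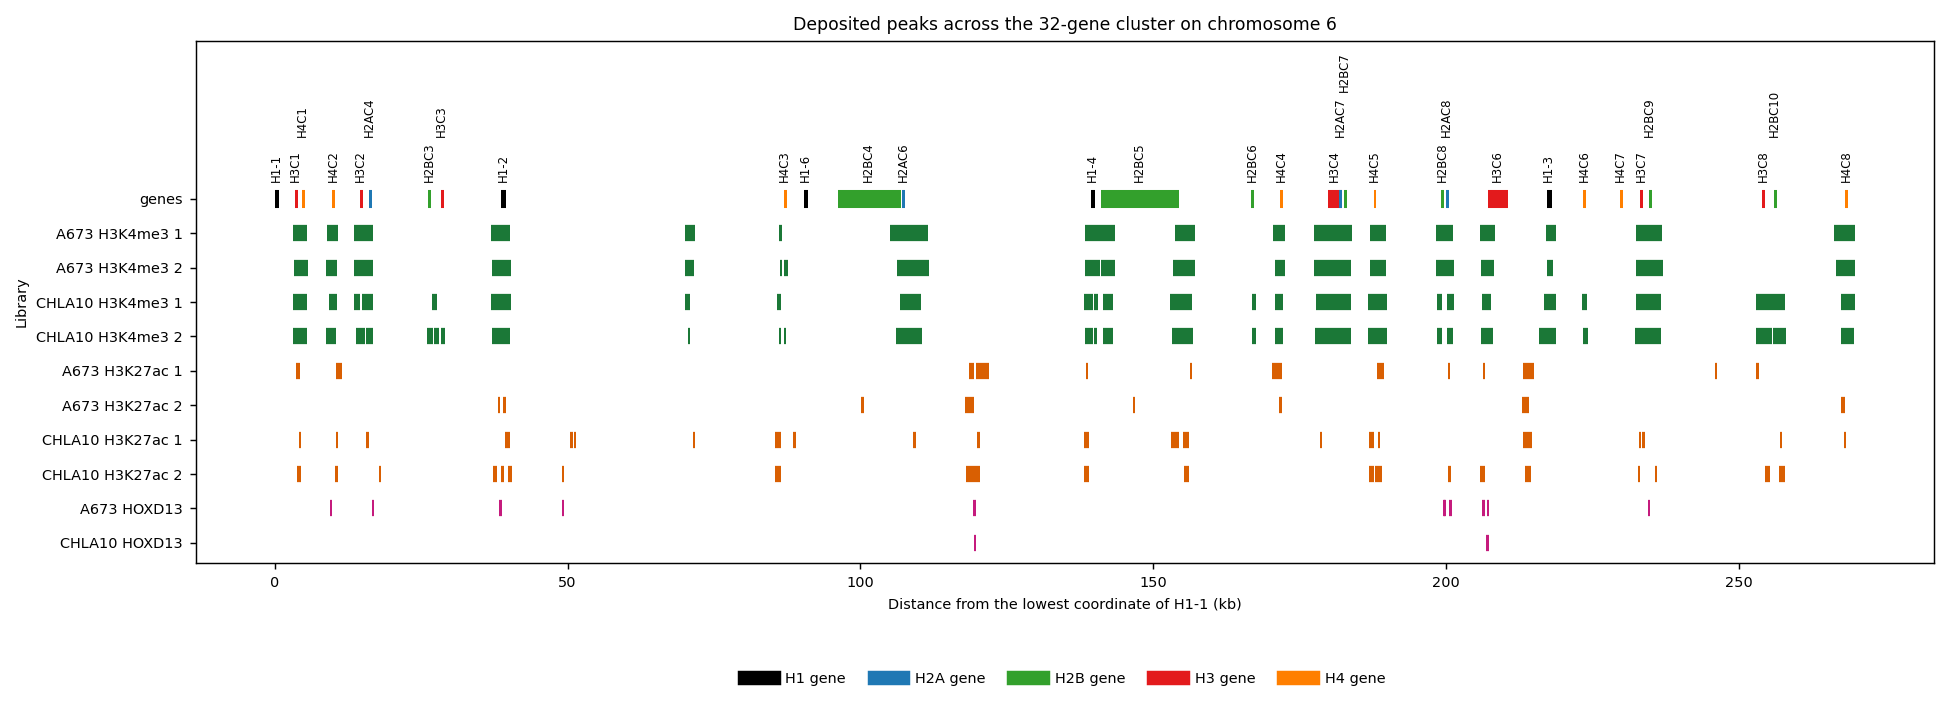
Genes (upper track, coloured by histone type) and deposited H3K4me3, H3K27ac and HOXD13 peaks by library across the 32-gene cluster, by distance in kb from the lowest coordinate of H1-1; peaks under 0.4 kb and genes under 0.5 kb are drawn at those widths. H3K4me3 appears at H2BC3, H3C3, H2BC6, H4C6, H3C8 and H2BC10 in the CHLA10 libraries and in neither A673 library.

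Other histone-related genes were counted beside these from fixed lists. Of 12 replacement and variant histone genes, which are made outside S phase as well, 11 had H3K4me3 in all 4 libraries, all but the testis gene H3-5. Of 9 germline variants 2 did. Of the canonical genes elsewhere in the genome, H4C16 had the mark in all 4 libraries and H2BC12L in both A673 libraries and 1 CHLA10 library.

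The genes that serve histone gene expression carried H3K4me3 throughout. Against 66.7% of all genes, it was in all 4 libraries at 11 of 11 transcription genes, among them NPAT, the octamer-binding POU2F1 and HINFP, which binds H4 promoters. It was at 14 of 14 genes of histone mRNA processing, including SLBP, which binds the stem-loop, and at 12 of 12 histone chaperone genes, including HJURP, which deposits CENPA. In A673, HOXD13 peaks lay at 1 gene of each of these 3 lists, POU2F1, ERI1 and NASP, and in CHLA10 at 2, 1 and 0 genes. With a background of 12.2% of all genes in A673 and 3.8% in CHLA10, nothing is read from these counts.

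The labelled cell type was checked by the same count. H3K4me3 was in all 4 libraries at 10 of 10 Ewing sarcoma marker genes, at 0 of 7 haematopoietic, 0 of 7 epithelial, 2 of 7 endothelial and 0 of 6 skeletal muscle markers. The other 4 protein-coding genes inside the histone clusters were FCGR1A, LOC124904411, SLC17A1 and HFE. SLC17A1, which encodes a phosphate transporter, had H3K27me3 in all 4 libraries and no H3K4me3, and HFE, the iron regulator, had H3K4me3 in all 4.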

How the data were processed

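Peaks were called per library by the authors, and the deposited lists give for each peak a fold enrichment (a ratio over the caller's background) and −log10 p and −log10 q values. The build is hg38, per the submitters' processing notes, which also list bedtools, SEACR 1.2, MACS2 and Bowtie2 with no role. Per the file headers, that is the peak names, H3K27me3 was called as broad peaks and the others as narrow peaks. The highest peak number in each deposited list exceeds the number of peaks, so each list is a subset by a criterion not given in the sources used here. This can move every count between lists. Read depth is unknown, since the lists hold no reads.

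Peaks on chromosomes 1 to 22 and X were overlapped with RefSeq genes of the same build (Python 3.11.15, pandas 2.3.3, numpy 2.4.6), over the gene and 1 kb on either side, by at least 1 bp. The overlap code was tested on simulated peaks. The histone genes, gene lists and words were chosen with earlier results of these data known. Genes named are those called in 1 line only, those with the highest and lowest H3K4me3 ranks, those with HOXD13 peaks or H3K27me3 in both libraries of a line, and the testis genes; H4C3, H4C7, the H1 genes, H4C9, H2AC14 and H2BC14 were added after their values were seen. A gene's value is that of the highest peak in its window; values at starts were added after the data were seen. Alternatives were gene body, 5 kb, gene start, 200 bp overlap, upper 50% by q, equal lists and each replicate left out. Of the 68 genes, 63 had a promoter entry. No p-value was computed.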

Additional observations from a re-analysis of the deposited data

How the results depend on the processing

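No paired analysis was possible because the counts come from no test. Leaving out a library only loosens the rule for a call, so no count could fall. H3K4me3 in all libraries kept was then at 53 genes each time. Of the values recomputed under an alternative, 98 stayed within 1.5 times the main count or within 1 SD of the main value. Another 40 moved further and 2 changed sign, and the 98 include counts of 0 that stayed at 0. With the gene body alone, H3K27ac was at 0 genes in all 4 libraries and 4 in CHLA10 only, and A673 HOXD13 at 3. A flank of 5 kb gave H3K4me3 in A673 only at 0, H3K27ac in all 4 libraries at 4 and in A673 only at 2, H3K4me1 in A673 only at 3, and H3K27me3 in all 4 libraries at 2. Gene starts gave H3K4me3 in A673 only at 0, and an overlap of 200 bp gave A673 HOXD13 at 3. The better 50% of each list gave H3K4me3 in all 4 libraries at 10 and in A673 only at 8, H3K27ac in all 4 at 0 and in CHLA10 only at 5, and H3K4me1 and H3K27me3 in A673 only at 1 each. Lists of equal peak number gave H3K4me3 in CHLA10 only at 2, H3K27ac in all 4 at 0 and in CHLA10 only at 6, H3K27me3 in A673 only at 1, and A673 HOXD13 at 5. Leaving out each replicate in turn, which could only raise counts, gave H3K4me3 in A673 only at 1 to 4. It gave H3K27ac in all libraries kept at 1 to 9, in A673 only at 1 to 3 and in CHLA10 only at 13 to 20. H3K4me1 was then in all libraries kept at 0 to 1 and in A673 only at 0 to 8. H3K27me3 was in all libraries kept at 0 to 1 and in A673 only at 0 to 1.

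The histone genes' mean share over the 4 libraries, minus that of all genes, was 13.1 percentage points for H3K4me3, −16.13 for H3K27ac, −37.16 for H3K4me1 and −17.17 for H3K27me3. Against genes of up to 3 kb it was 49.31, 18.4, −4.796 and −14.19. At gene starts, a setting added after the data were seen, it was 14.81, 8.251, −8.279 and −11.52. The sign for H3K27ac was thus turned under both. The cause of these changes was not tested. Read depth was unknown, so no gene without a peak can be called free of the mark. The lists differ in length and are subsets of what was called. The windows of the 68 genes merged into 38 loci, and near-identical copies lower the number of separately measured genes further.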
